A study of Homo sapiens with 8 samples.

Results

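The S100 genes encode small calcium-binding proteins, and 10 of them were followed here through 8 microarrays of human cancer cells transfected with single mature miRNAs. The 10 genes were S100A2, S100A3, S100A4, S100A6, S100A10, S100A11, S100A13, S100A14, S100A16 and S100P, chosen as probes carrying these names among the 43317 gene names of the arrays. S100A14 was among the genes that the study put forward as possible targets of miR-139-3p in colorectal cells, a choice drawn in part from the miR-139-3p array itself, so its low value on that array is not independent evidence. HCT116 is a human colorectal cancer line and PANC-1 a human pancreatic cancer line. HCT116 cells received the guide strand miR-139-5p or the passenger strand miR-139-3p of one precursor, or the passenger strand miR-143-5p or the guide strand miR-143-3p of another. PANC-1 cells received a guide strand, miR-30c-5p or miR-30a-5p, or a passenger strand, which was miR-30c-2-3p in one case and miR-30a-3p in another. Each miRNA had 1 array, with RNA of the transfected cells labelled with Cy5 and RNA of mock cells from the same line labelled with Cy3. Mock cells had received no precursor, and no array held cells with a control miRNA. The methods give 10 nM of precursor for the colorectal cells, and the time between transfection and RNA collection for the arrays was not given in the sources used here.

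S100 proteins are built around a pair of calcium-binding EF-hand motifs and mostly act as dimers, which on binding calcium expose a surface for partners such as annexins, non-muscle myosin and ezrin. Some are also released from cells and bind receptors such as RAGE, the product of AGER. Most of the human genes lie in a cluster on the long arm of chromosome 1, called the epidermal differentiation region, and several are known for altered levels in colorectal and pancreatic tumours.

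The miRNAs that were transfected are listed here because each array is read against one of them. The mature sequences are from RefSeq, GRCh38.p14, written from 5′ to 3′ with the seed (bases 2 to 8, the part that pairs with most targets) in capitals.
miR-139-5p: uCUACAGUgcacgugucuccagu
miR-139-3p: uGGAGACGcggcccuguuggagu
miR-143-5p: gGUGCAGUgcugcaucucuggu
miR-143-3p: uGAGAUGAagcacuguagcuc
miR-30c-5p: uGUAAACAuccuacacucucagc
miR-30c-2-3p: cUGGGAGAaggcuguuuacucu
miR-30a-5p: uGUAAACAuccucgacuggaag
miR-30a-3p: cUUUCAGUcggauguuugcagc
The seeds of miR-30c-5p and miR-30a-5p were the same, and the other 6 seeds each occurred in 1 miRNA. None of the 11 probes of the 10 genes contained the heptamer complementary to bases 2 to 8 of any of these miRNAs, or to bases 2 to 7 followed by A. Of 24886 probes of detected genes, 0.607% (miR-139-5p) to 1.51% (miR-30a-3p) held such a heptamer. The rest of each transcript was not searched, so nothing follows about target sites elsewhere.

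Of the 10 genes, 9 had their probe on chromosome 1, all read from the minus strand, and S100P had its probe on chromosome 4, on the plus strand at chr4:6698819-6698878 (hg19, as for all probe positions here). The chromosome 1 probes lay in the order S100A10 (chr1:151955420-151955479), S100A11 (chr1:152005160-152005219), S100A6 (chr1:153507255-153507685), S100A4 (chr1:153516198-153516257), S100A3 (chr1:153519998-153520057), S100A2 (chr1:153533831-153533890), S100A16 (chr1:153579675-153579734), S100A14 (chr1:153587006-153587065) and S100A13 (chr1:153591285-153591344). The S100A6 probe spans 431 bases of genome with 60 bases of probe and so crosses an intron. The other probes lie within 60 bases of genome, and whether these are coding or untranslated was not annotated in the files. S100A11 was the only member with a second probe, at chr1:152005219-152005278.

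Apart from controls there were 60901 spots an array, printed with 58201 probes. Spots had a median intensity of 22.2 to 23.3 in the Cy3 channel over a local background of 17 to 19, and 23.7 to 26.5 in the Cy5 channel over 19 to 20. No spot was saturated. The log2 ratios of 300 probes printed 10 times on each array had a median SD of 0.0393 to 0.0646, which covers technical error within an array only. Markers of epithelial, intestinal and mesenchymal cells were read in the mock channels. EPCAM, an epithelial adhesion molecule, had a mean log2 mock level of 12.45 in HCT116 and 8.02 in PANC-1, and VIM, the mesenchymal filament vimentin, of 6.61 and 15.48. Of 4 epithelial markers, CDH1 and EPCAM were higher in HCT116, while the keratins KRT8 (12.42 in HCT116 and 11.96 in PANC-1) and KRT18 (14.12 and 14.53) did not pass the test. Of 4 mesenchymal markers, VIM, ZEB1 and CDH2 were higher in PANC-1 and FN1 was not well above background in any mock channel. CDX2, an intestinal transcription factor, had 8.11 in HCT116 and 6.85 in PANC-1, and the intestinal cadherin CDH17 stayed at background in both lines. All arrays were on 1 slide, with the HCT116 arrays in one column and the PANC-1 arrays in the other, so that slide column and line cannot be told apart.

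Values are given as log2 ratios of Cy5 over Cy3 and as log2 levels of each channel, and because levels depend on the probe they were not compared between genes. With 1 array per miRNA there was no replicate and no test of an effect of a miRNA. Ratios 1 or more from 0 on the log2 scale, which is 2-fold, were called lower or higher. A gene counted as detected if its probe was well above background (the scanner software's own call) in at least 1 channel. In RNA of whole cultures, fewer cells with a transcript and less transcript per cell cannot be told apart.

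The 2 arrays of one precursor were taken to share a mock RNA. The labels do not state this. It was inferred from a mock number that the deposited names of both arrays carry and from the values: between their Cy3 channels 0 to 13 genes differed by 2-fold or more, against 226 to 229 between the precursors in HCT116 and 41 to 46 in PANC-1. On this reading there were 2 mock RNAs in each line, and a value shared by the strands of a precursor can come from their common mock.

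Over the 8 arrays the 10 genes gave 80 pairs of gene and array. Of these, 77 were detected, 6 were lower and 4 were higher by the 2-fold rule, and 67 stayed within 2-fold. The 3 undetected pairs were S100A14 on PANC-1 arrays. The other 9 members were well above background in both channels of every array. Past 2-fold on at least 1 array were 6 members, namely S100A2, S100A3, S100A10, S100A11, S100A14 and S100A16. Single arrays called 0.201% to 4.14% of all detected genes lower and 0.0587% to 2.11% higher. The share of all genes past 2-fold on at least 1 array was not computed, so the count of 6 shows nothing particular to the members.

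**Figure D1:**
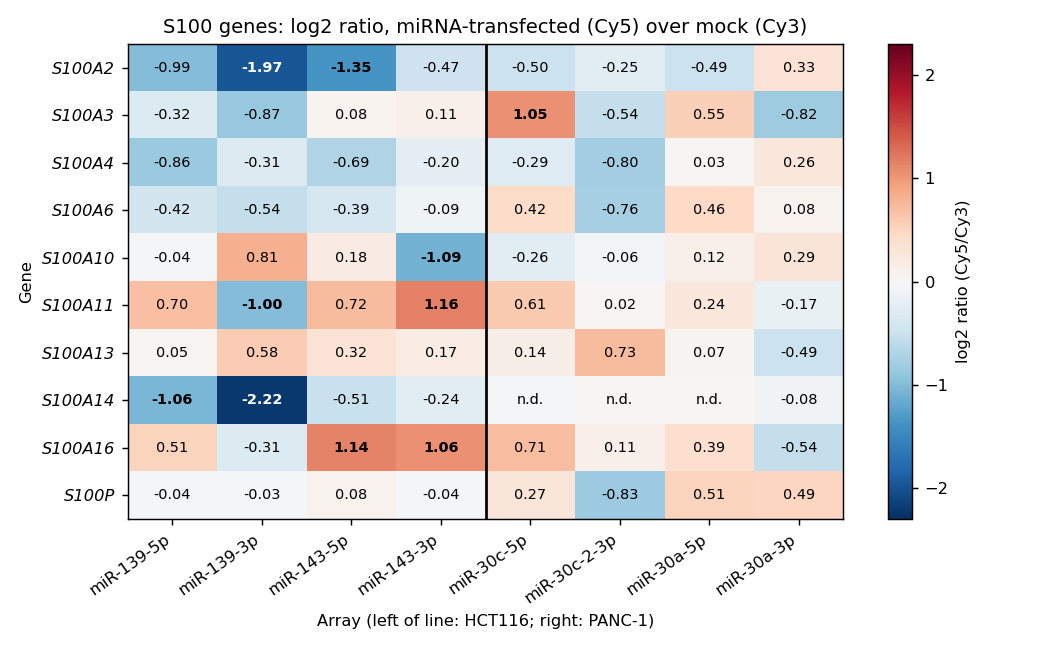
Log2 ratio of miRNA-transfected over mock cells for the 10 genes (rows) on the 8 arrays (columns), with the value printed in each cell, bold where it is at least 1 from 0, and n.d. where the gene was not detected. The lowest values are -2.22 (S100A14) and -1.97 (S100A2), both on the miR-139-3p array, and the highest is 1.16 (S100A11, miR-143-3p array).

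S100A14 encodes a member with an atypical calcium-binding site that is found in epithelia. Its transcript was lower with both strands of miR-139 by the 2-fold rule, although with miR-139-5p the value lay near the limit. In HCT116 the mock level was 10.45 on the miR-139-5p array, 10.59 on the miR-139-3p array, 10.68 on the miR-143-5p array and 10.64 on the miR-143-3p array. The transfected levels on the same arrays were 9.40, 8.37, 10.17 and 10.41. The mock levels lay close together, the miR-139-3p level lay lowest, and every transfected level lay below its mock. The log2 ratios were -1.06 for miR-139-5p, -2.22 for miR-139-3p, -0.51 for miR-143-5p and -0.24 for miR-143-3p. On the miR-139-3p array the unprocessed signal was 1240 in the mock channel and 240 in the transfected channel, and S100A14 was the gene at rank 20 from the lowest ratio. On the miR-139-5p array it was at rank 32. The share of all genes called lower was 2.82% of 20708 on the miR-139-3p array and 0.201% of 20443 on the miR-139-5p array. Taking the miR-143 mock as reference, the ratios of S100A14 were -1.26 (miR-139-5p) and -2.29 (miR-139-3p). With median centring in place of loess the miR-139-5p ratio was -0.78, which is within 2-fold, and the miR-139-3p ratio was -2.22.

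In PANC-1 cells S100A14 was at background. Its mock levels were 5.77 to 5.89 and its transfected levels 5.79 to 5.81, and only the mock channel of the miR-30a-3p array was called well above background. No ratio for the miR-30 arrays could be read from it.

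S100A2, an S100 protein of the nucleus known to bind p53, was lower on 2 HCT116 arrays and stood just inside the limit on another. Its mock levels in HCT116 were 9.67 and 9.71 on the miR-139-5p and miR-139-3p arrays and 9.97 and 10.03 on the miR-143-5p and miR-143-3p arrays. The transfected levels were 8.68, 7.74, 8.62 and 9.56, each of them below all 4 mock levels. This gave log2 ratios of -0.99, -1.97, -1.35 and -0.47. The miR-143-5p array called 1% of 20498 genes lower. In PANC-1 the mock levels were 7.64 to 8.02 and the ratios were -0.50 for miR-30c-5p, -0.25 for miR-30c-2-3p, -0.49 for miR-30a-5p and 0.33 for miR-30a-3p, all within 2-fold. Its unprocessed signal with miR-139-3p was 147, and the offset of 50 added to every signal shrinks the ratios of dim probes. The scanner's own ratio was -2.39 on the miR-139-3p array and -1.14 on the miR-139-5p array.

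**Figure D2:**
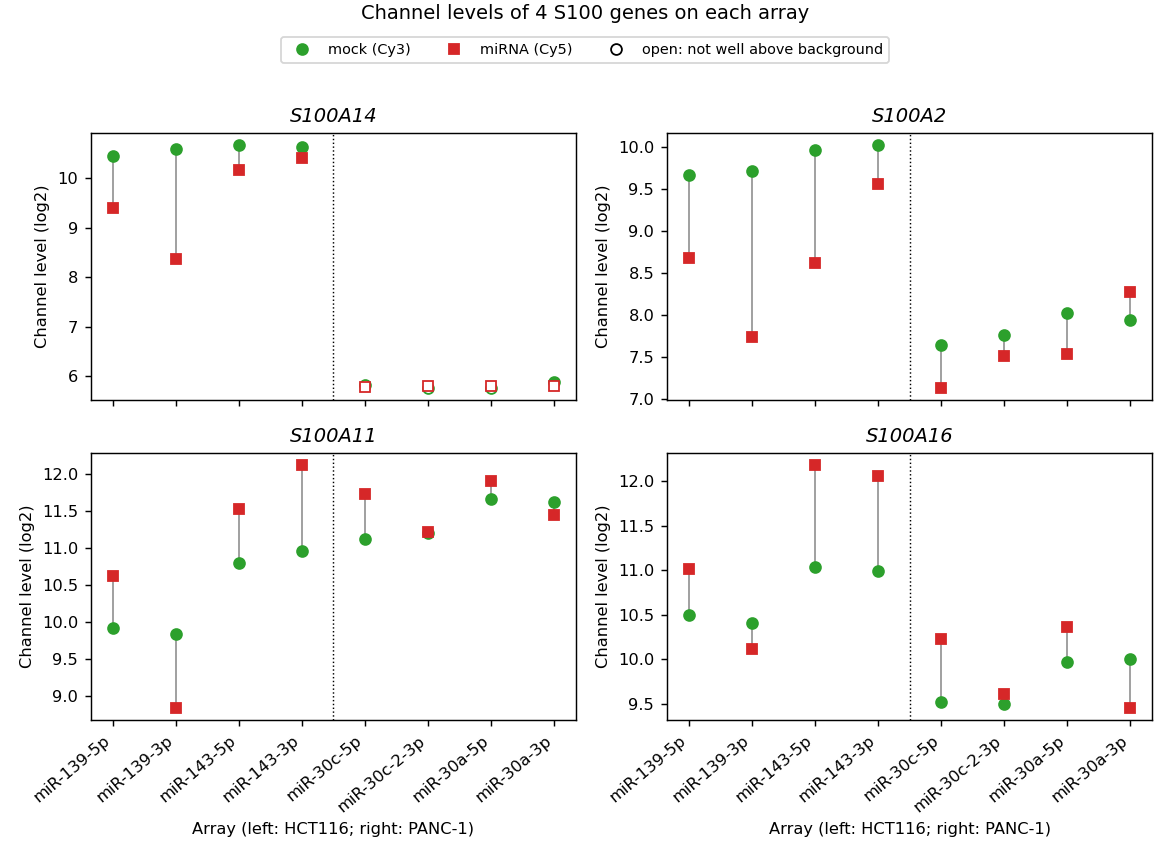
Channel levels (log2, y axis) of S100A14, S100A2, S100A11 and S100A16 on each array (x axis), with circles for mock (Cy3), squares for transfected cells (Cy5), a line joining the pair of 1 array, and open symbols where a channel was not well above background. S100A14 and S100A2 lie below mock on every HCT116 array, while S100A11 and S100A16 lie above mock on the miR-143 arrays and below it on the miR-139-3p array.

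S100A16 was higher with both strands of miR-143, and S100A11 with miR-143-3p. S100A11 binds annexin A1 at membranes, and S100A16 is a broadly expressed member of the cluster. S100A11 had mock levels of 9.92 and 9.83 on the miR-139-5p and miR-139-3p arrays and of 10.80 and 10.96 on the miR-143-5p and miR-143-3p arrays, with transfected levels of 10.62, 8.83, 11.52 and 12.12. The mock levels thus differed by 1.0 between the precursors, as much as some of the differences from mock. The log2 ratios were 0.70, -1.0, 0.72 and 1.16. The second S100A11 probe gave 0.83, -0.79, 0.63 and 1.22, so that the sign was the same on all 4 arrays but the value with miR-139-3p was past 2-fold with 1 probe only.

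S100A16 had mock levels of 10.50, 10.41, 11.04 and 10.99 on the HCT116 arrays in the same order, and transfected levels of 11.01, 10.11, 12.18 and 12.06. The ratios were 0.51, -0.31, 1.14 and 1.06. Both miR-143 levels lay above every mock level of the line. The miR-143-5p array called 0.356% of genes higher, and the miR-143-3p array called 0.517% of 20107 higher and 0.925% lower. Against the miR-139 mock the miR-143 ratios were larger, at 1.73 and 1.60 for S100A16 and 1.64 and 2.24 for S100A11. Against the miR-143 mock, the miR-139-5p ratio of S100A11 was -0.26 in place of 0.70 and that of S100A16 was -0.01 in place of 0.51, so the direction with miR-139-5p depended on the mock.

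In PANC-1, S100A11 had ratios of 0.61 (miR-30c-5p), 0.02 (miR-30c-2-3p), 0.24 (miR-30a-5p) and -0.17 (miR-30a-3p), and S100A16 of 0.71, 0.11, 0.39 and -0.54. Neither gene reached 2-fold there. The mock RNAs of PANC-1 differed by 0.48 for S100A11 and 0.47 for S100A16, with the miR-30a mock the higher.

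**Figure D3:**
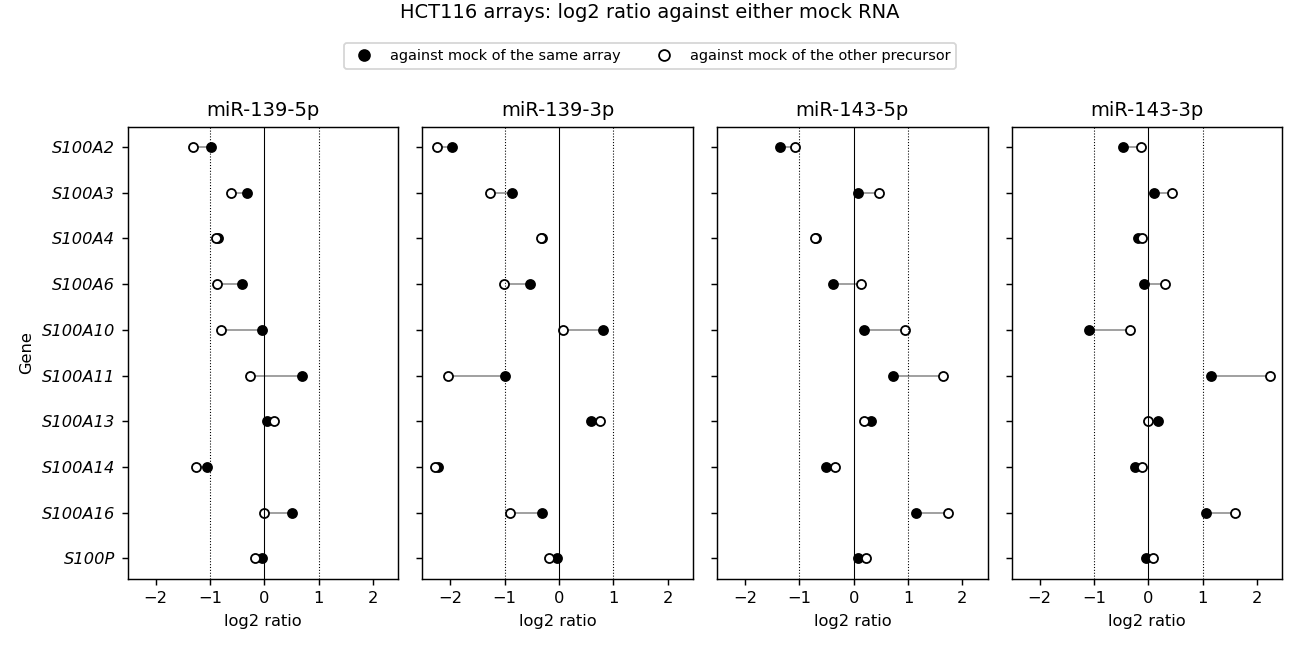
Log2 ratio (x axis) of the 10 genes on each HCT116 array against the mock of the same array (filled) and against the mock of the other precursor (open), with dotted lines at 2-fold. The filled and open points of S100A14 differ little on the miR-139 arrays, while those of S100A11 and S100A10 differ by more than 0.7 on all 4 arrays.

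S100A10 is the partner of annexin A2 in a membrane-bound tetramer and, unlike most of the family, is held in its active shape without calcium. It was lower on the miR-143-3p array, where its mock level was 12.25 and its transfected level 11.16 (log2 ratio -1.09). With both miR-139 strands (5p first) and with miR-143-5p the mock levels were 11.49, 11.51 and 12.25, the transfected levels 11.45, 12.32 and 12.44, and the ratios -0.04, 0.81 and 0.18. Its mock RNAs in HCT116 differed by 0.76, and against the miR-139 mock the miR-143-3p ratio was -0.33, which is within 2-fold. The PANC-1 ratios lay between -0.26 and 0.29.

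S100A3, a protein best known from the hair cuticle, was the only member past 2-fold on a PANC-1 array. With miR-30c-5p its mock level was 8.46 and its transfected level 9.51 (log2 ratio 1.05), where 0.747% of 20887 genes were called higher and 0.445% lower. With miR-30a-5p, which has the same seed, the levels were 8.83 and 9.38 (ratio 0.55). The passenger strands gave ratios of the other sign, at -0.82 for that of miR-30a and -0.54 for that of miR-30c-2. Against the other PANC-1 mock the miR-30c-5p ratio was 0.79, within 2-fold. In HCT116 the ratios were -0.32, -0.87, 0.08 and 0.11, with the 5p strand first for miR-139 and then for miR-143. The miR-139-3p ratio of this dim probe was past 2-fold in 4 of 7 alternatives, at -1.55 by the scanner's own ratio and -1.27 against the miR-143 mock.

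The remaining 4 members stayed within 2-fold on all arrays. S100A4, known for its links with non-muscle myosin and metastasis, had ratios below 0 on the 4 HCT116 arrays, from -0.86 (miR-139-5p) to -0.20 (miR-143-3p), and from -0.80 (miR-30c-2-3p) to 0.26 (miR-30a-3p) in PANC-1. S100A6, or calcyclin, ranged from -0.54 to -0.09 in HCT116, and in PANC-1 it had 0.42 and 0.46 with the 5p strands of miR-30 and -0.76 with miR-30c-2-3p. S100A13, which takes part in the release of FGF1 from cells, was at 0.05 to 0.58 in HCT116 and at -0.49 (miR-30a-3p) to 0.73 (miR-30c-2-3p) in PANC-1. None of the members was past 2-fold with miR-30c-2-3p or with either strand of miR-30a. The miR-30c-2-3p, the miR-30a-5p and the miR-30a-3p arrays called 4.14%, 0.263% and 1.1% of genes lower and 1.71%, 0.306% and 0.372% higher.

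S100P, an ezrin-binding member known for its high level in many pancreatic tumours, was dim in both lines. Its unprocessed mock signal was 30.2 to 37.1 in HCT116, with ratios of -0.04 to 0.08. In PANC-1 the mock signals were 57.1 to 79.1 and the ratios 0.27 (miR-30c-5p), -0.83 (miR-30c-2-3p), 0.51 (miR-30a-5p) and 0.49 (miR-30a-3p). The scanner's own ratio for miR-30c-2-3p was -2.34, from signals of 78.2 and 33, and that for miR-30a-5p was 0.95. The signal lay close enough to background that these ratios depended on how background was handled.

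Set side by side, the medians of the detected members were -0.18 (miR-139-5p), -0.43 (miR-139-3p), 0.08 (miR-143-5p) and -0.07 (miR-143-3p) in HCT116, and 0.27 (miR-30c-5p), -0.25 (miR-30c-2-3p), 0.24 (miR-30a-5p) and 0.00 (miR-30a-3p) in PANC-1. The medians of all detected genes lay between 0.00 and 0.02. On the miR-139-3p array 3 of 10 members were lower and none was higher, beside 2.82% and 2.11% of all genes, and on the miR-139-5p array 1 was lower and none higher, beside 0.201% and 0.0587%. With a single array these shares describe the array only, and S100A14 is among the lower genes of both. On the HCT116 arrays 3, 7, 5 and 7 of 10 members lay further from 0 than their 2 mock RNAs differed. On the PANC-1 arrays 6, 6, 5 and 7 did so, in the order of the medians above. Each PANC-1 count includes S100A14, which was at background there, with ratios of -0.08 to 0.04 beside a mock difference of -0.03. For S100A6 in PANC-1 the mock difference was only 0.02. The share of all genes past their own mock difference was not computed, so these counts show nothing particular to the members.

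Members that lie close together in the genome did not always share a direction. S100A16, S100A14 and S100A13 follow one another on the minus strand, with 7271 and 4219 bases between their probes. With miR-139-3p their ratios were -0.31, -2.22 and 0.58. With miR-143-5p they were 1.14, -0.51 and 0.32. S100A6 and S100A4, with 8512 bases and the S100A5 probe between their probes, were both below 0 on every HCT116 array against its own mock. Against the miR-139 mock S100A6 was above 0 with miR-143-5p (0.14) and miR-143-3p (0.30), while S100A4 stayed below 0. With miR-30c-2-3p S100A6 and S100A4 had -0.76 and -0.80, but with miR-30c-5p 0.42 and -0.29. Against the other PANC-1 mock the miR-30c-5p ratios were 0.24 and 0.09, both above 0, so this contrast depended on the mock. Among 14 genes on either side of the cluster, chosen from general knowledge of the region, none was past 2-fold on any array. The lowest of their ratios was -0.95 (INTS3, a subunit of the Integrator complex, with miR-30c-2-3p) and the highest 0.67 (DENND4B with miR-30a-3p).

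Proteins known to bind S100 family members were covered by a list of 17 genes. On the miR-139-3p array PLAT, the tissue plasminogen activator that S100A10 can bind, had a ratio of -1.14. AHNAK, a large scaffold tied to S100A10 and annexin A2, had 1.05 there. PLAT was dim on that array, with unprocessed signals of 91.6 (mock) and 33.2 (transfected). Its scanner ratio was -3, so the size of its ratio depended on how background was handled. On the miR-143-3p array EZR (ezrin, a partner of S100P) had -1.05 and CACYBP (the calcyclin-binding protein, a partner of S100A6) had -1.33. In PANC-1 AHNAK had -1.17 with miR-30a-3p and -1.04 with miR-30c-2-3p. ANXA1 (annexin A1, a partner of S100A11) had -1.72 with miR-30a-3p, from a mock level of 10.95 to 9.23. All other detected pairs of these genes and arrays that had a ratio were within 2-fold. No pair passed 2-fold on an array of a 5p strand. On the miR-139-5p array 15 of the 17 genes were read, as ANXA5 had no ratio and FGF1 was not detected. The medians of the list lay between -0.09 and 0.17.

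Of 10 further S100 genes on the arrays, S100A5 was detected on all 8, with ratios from -0.23 (miR-139-3p) to 0.21 (miR-30a-5p). S100A1, S100A7 and S100Z passed background in a channel of PANC-1 arrays only, at unprocessed signals of at most 31.9. S100A7A, S100A8, S100A9, S100A12, S100B and S100G were not well above background on any array.

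The genes most like a member over the arrays were found by the root mean square difference of log2 ratios over the 8 arrays, among 12370 genes with symbols detected on all of them (12369 where the member was one of these). The nearest to S100A14 were HSP90AA2P (difference 0.330), CHAF1B (0.343), ACOT11 (0.349), SDHC (0.379) and SLC7A5 (0.387). HSP90AA2P is a pseudogene close in sequence to a heat shock protein gene, so its probe may also read that gene. CHAF1B is a subunit of a chromatin assembly factor, ACOT11 an acyl-CoA thioesterase, SDHC a subunit of succinate dehydrogenase and SLC7A5 an amino acid transporter. With miR-139-3p these 5 had ratios of -2.02, -1.56, -1.80, -2.17 and -2.73. They were picked by closeness to S100A14 on these same arrays, so low ratios here follow from the choice. S100A14 entered this measure with its values at background in PANC-1.

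The nearest to S100A2 were MRPS27 (0.391), KCNQ1 (0.405) and EIF4A3 (0.416), with miR-139-3p ratios of -1.42, -1.13 and -1.73. For S100A11 they were CHST15 (0.216), PLAUR (0.290) and S100A16 (0.333), and for S100A16 they were PLAUR (0.217), SEMA7A (0.239) and QSOX1 (0.281). PLAUR, the urokinase receptor, thus lay near both, with 0.88 on the miR-143-5p array and 0.81 on the miR-143-3p array. These genes too were picked on the arrays whose ratios are printed, so ratios near those of the member follow from the choice. The points of this measure share their arrays and, in pairs, their mock RNA, and likeness over 8 arrays says nothing of shared function.

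The mock channels allowed the levels of the 10 genes to be compared between mock cells of HCT116 and of PANC-1. Each line had 2 mock means, each over the 2 arrays of a precursor. Whether these came from separate cultures is not stated, so the test measures the spread between 2 RNAs, which may be technical. By limma with Benjamini-Hochberg adjustment over 19505 genes, 4 members were higher in HCT116 and 2 were higher in PANC-1, beside 23.6% and 21% of all genes.

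S100A14 had mock means of 10.52 and 10.66 in HCT116 and of 5.80 and 5.83 in PANC-1. The lines did not overlap, and the difference was 4.78 on the log2 scale (SE 0.073, limma adjusted p = 0.000575), with the PANC-1 level called well above background on 1 of 4 arrays. That level was at background, where the floor and the offset set both the value and its small spread, so the difference can be read only as a lower bound and its SE and p only as those of the floor. It ran from 4.62 to 9.36 over the alternatives.

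S100A4 had mock means of 12.82 and 12.85 in HCT116 and of 10.81 and 10.41 in PANC-1, a difference of 2.23 (SE 0.156, limma adjusted p = 0.00298). S100A2 had 9.69 and 10 against 7.70 and 7.98, a difference of 2.01 (SE 0.159, limma adjusted p = 0.00368). S100A14, S100A4 and S100A2 kept their calls in all 10 alternatives, with adjusted p at most 0.0449. S100A13 was higher in HCT116 by 0.53 (SE 0.107, limma adjusted p = 0.026), with means of 11.42 and 11.27 against 10.92 and 10.71.

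The members higher in PANC-1 were S100A3 and S100P. S100A3 had 7.58 and 7.93 in HCT116 against 8.33 and 8.72 in PANC-1, a difference of -0.78 (SE 0.197, limma adjusted p = 0.0439). S100P had 6.07 and 6.20 against 6.90 and 6.55, a difference of -0.59 (SE 0.146, limma adjusted p = 0.0415). The size for S100P, a dim probe, ran from -1.64 on the processed signals to -0.42 over the alternatives. The calls depended on single mock means: leaving out any 1 of the 4 mock means ended the call of S100P (adjusted p 0.0606 to 0.124), leaving out any but the second HCT116 mean ended that of S100A3 (0.0934 to 0.177), and likewise that of S100A13 (0.0605 to 0.128).

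The other 4 did not pass the test. S100A16 was higher in HCT116 by 0.99 (SE 0.270, limma adjusted p = 0.0514), with means of 10.46 and 11.02 against 9.51 and 9.98. For none of the 4 did the means of the lines overlap. S100A11 differed by -1.02 (SE 0.404, adjusted p = 0.118 by limma), S100A10 by -0.56 (SE 0.298, adjusted p = 0.206 by limma) and S100A6 by -0.30 (SE 0.175, adjusted p = 0.239 by limma). In HCT116 the mock RNAs differed by 1.0, 0.76 and 0.46 for these 3 genes, which is more than for any other member except S100A16 (0.56). Without the second HCT116 mean these 3 did pass, at differences of -1.52, -0.94 and -0.53.

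**Figure D4:**
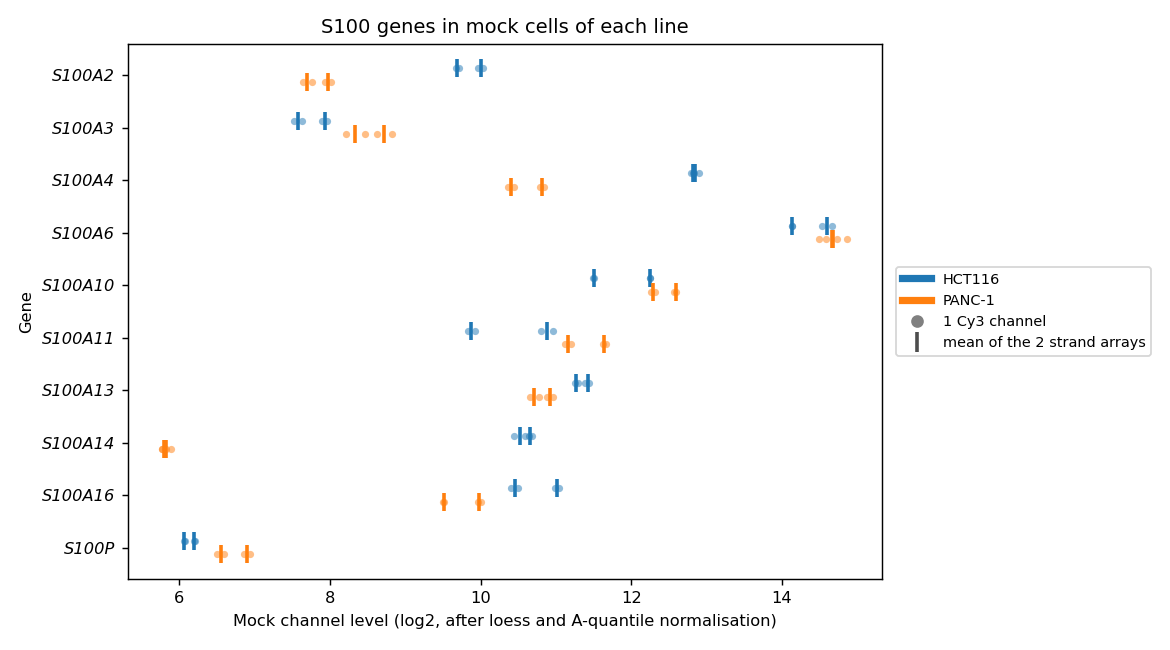
Mock levels (log2, x axis) of the 10 genes (y axis) in HCT116 (blue) and PANC-1 (orange), with a point for each Cy3 channel and a tick for the mean of the 2 arrays taken to share a mock RNA. The lines lie apart for S100A14, S100A4 and S100A2, while for S100A6 and S100A10 the means of the lines lie within 0.56 of each other.

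Among the 17 partner genes 16 could be tested, and 6 were higher in HCT116 and 3 in PANC-1, beside 23.6% and 21% of all genes. The largest differences were those of ANXA1 (2.26), EZR (2.21) and SYT1 (1.53, a synaptotagmin that binds S100A13) toward HCT116, and of AHNAK (-2.71), IQGAP1 (-0.76, a cytoskeletal scaffold) and S100PBP (-0.56, an S100P-binding protein) toward PANC-1. Of the 14 genes around the cluster, SLC27A3 (0.33) and RAB13 (0.32) were higher in HCT116 and SLC39A1, a zinc transporter, was higher in PANC-1 (-0.94), which is 2 and 1 of 14 beside the same shares. S100A5 was higher in HCT116 by 0.34 (limma adjusted p = 0.0363). The median difference was 0.12 over the members, 0.03 over the partner genes, 0.01 over the neighbouring genes and 0.02 over all genes.

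RefSeq (GRCh38.p14) gave 14 promoters for the 10 genes, each from 250 bases before to 50 after a start. The 250 bases before the start are shown for the 3 members with the most stable difference between the lines, S100A14, S100A4 and S100A2, and for S100A6, which did not pass the test. They are written 5′ to 3′ on the gene's own strand, which is the minus strand, and capitals mark CG dinucleotides, where human DNA can be methylated.
S100A14: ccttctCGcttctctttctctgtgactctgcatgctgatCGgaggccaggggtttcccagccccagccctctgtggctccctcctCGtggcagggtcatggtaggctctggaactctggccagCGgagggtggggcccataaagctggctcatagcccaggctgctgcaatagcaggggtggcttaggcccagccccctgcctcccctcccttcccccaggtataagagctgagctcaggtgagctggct
S100A4: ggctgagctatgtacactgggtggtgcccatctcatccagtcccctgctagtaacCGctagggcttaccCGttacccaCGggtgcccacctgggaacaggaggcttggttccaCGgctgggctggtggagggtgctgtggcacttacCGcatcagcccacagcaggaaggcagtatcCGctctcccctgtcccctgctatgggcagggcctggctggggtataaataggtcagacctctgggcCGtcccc
S100A2: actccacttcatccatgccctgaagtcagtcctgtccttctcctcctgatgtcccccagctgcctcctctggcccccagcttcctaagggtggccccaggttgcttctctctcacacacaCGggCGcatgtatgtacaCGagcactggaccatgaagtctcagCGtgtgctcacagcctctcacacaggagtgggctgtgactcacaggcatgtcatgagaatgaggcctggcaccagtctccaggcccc
S100A6: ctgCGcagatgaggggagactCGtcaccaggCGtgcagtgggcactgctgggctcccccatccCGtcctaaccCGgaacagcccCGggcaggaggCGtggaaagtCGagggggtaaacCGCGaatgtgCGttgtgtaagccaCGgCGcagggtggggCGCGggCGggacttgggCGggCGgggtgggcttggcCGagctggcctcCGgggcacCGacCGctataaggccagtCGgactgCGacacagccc
They cover chr1:153616326-153616575 for S100A14, chr1:153545807-153546056 for S100A4, chr1:153565845-153566094 for S100A2 (the first of 2 promoters) and chr1:153535992-153536241 for S100A6. The S100A14 and S100A2 stretches hold 4 CG each and that of S100A4 holds 7, against 24 for S100A6 and a median of 11 over all promoters. Among the other members S100A10 had 24, S100A11 had 15 and S100A13 had 8 to 15, whereas S100A3 and S100P had 4 each and S100A16 had 1 and 6. Of the members that passed the test between the lines, S100A14, S100A4, S100A2, S100A3 and S100P had 4 to 7 in the stretches counted above. The second S100A2 promoter had 3. S100A13, which also passed, had 15, 10 and 8 in its promoters. Of those that did not pass, S100A6, S100A10 and S100A11 had 24, 24 and 15. S100A16, which missed the limit narrowly (limma adjusted p = 0.0514), had 1 and 6. Methylation was not measured, and what the CG number has to do with the levels was not tested.

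The 300-base promoters were searched on both strands for TATAAA (the TATA box), TGACTCA (the AP-1 motif), GGGCGG (the GC box), CCAAT and CACGTG (an E-box). TATAAA was found in S100A4 at position -31, in S100P at -28 and in a promoter of S100A13 at -29 from the start, and in 11.5% of 35116 promoters. TGACTCA was found in S100A2 at -52 and in S100A3 at -225, and in 4.95% of all promoters. GGGCGG was in 6 of the 14 promoters (45.0% of all), CCAAT in 3 (34.6%) and CACGTG in none (7.26%). The S100A14 promoter held none of these letters, which says nothing of the factors that may bind it.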

How the data were processed

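RNA of 8 samples was measured on Agilent arrays of 60-base probes carrying 2 dyes, 4 arrays for each cell line. Groups came from the labels. The deposited scanner output (Agilent Feature Extraction) held spot and local background intensity for both channels, and calls for outlier, saturated and well-above-background spots. The deposited log10 ratio of processed Cy5 over processed Cy3 was identical in the authors' table, in which 0 columns were without a sample. It was converted to log2 as an alternative.

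Background was corrected with normexp (offset 50) in R 4.3.3 with limma 3.58.1, ratios were normalised by loess with control spots at weight 0, outlier spots were dropped, spots of a probe were averaged, and each gene name was read by its brightest probe. Channel levels were taken after A-quantile normalisation. For the lines, limma was fitted to 2 mock means each, with Benjamini-Hochberg adjustment at 0.05, and was tested on simulated data. Plots and tables used Python 3.11.15 and matplotlib 3.10.9. The sequence tables of RefSeq matched 10 of 10 members by symbol.

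Named genes were all members on all arrays, detected further S100 genes, partner and neighbouring genes past 2-fold or with at most 3 per direction of the largest line differences, and the genes nearest to S100A14 and to members past 2-fold on at least 2 arrays. INTS3 and DENND4B were named after their values were seen. Members and lists were chosen with earlier results of these data known. Alternatives were no background correction, an offset of 1, median centring, the scanner ratio, the median over probes, no filter on dim probes, the other mock of the line, and, for the lines, other normalisations, a random block, and each mock mean left out.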

Additional observations from a re-analysis of the deposited data

How the results depend on the processing

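Of the 10 pairs of member and array past 2-fold, none turned its direction in the 7 alternatives and 6 stayed past 2-fold in all of them. The other 4 were S100A14 with miR-139-5p (-0.78 with median centring), S100A11 with miR-139-3p (-0.89 with the median over its probes), S100A10 with miR-143-3p (-0.33) and S100A3 with miR-30c-5p (0.79), the latter pair against the other mock. With the other mock of the line as reference 8 of the 10 stayed past 2-fold, and 16 of the 77 detected pairs changed sign. The number of lower pairs (6) was 10 with the scanner log ratio and 10 with an offset of 1. The number of higher pairs (4) was 13 with median centring in place of loess, 9 of them on PANC-1 arrays. Median centring moved the median of all genes to 0.211 (miR-30c-5p), 0.15 (miR-30a-5p) and 0.299 (miR-30a-3p), and 5 of the 13 were 2-fold beyond that median. S100A14 on the miR-139-3p array (-2.22) was at -2.39 without background correction, -2.39 by the scanner log ratio, -2.45 with an offset of 1 and -2.29 against the mock of the other precursor. The number of members higher in PANC-1 mock (2) was 1 with the median over the probes of a name, 0 with no filter on dim probes, 4 with all channels and the precursor as a random block, and 0 to 4 when a mock mean was left out, a fit in which the lone mean is assumed to vary like the others. By limma's unadjusted p under 0.05 the count was 2 with no filter and 0 to 5 with a mean left out. The number higher in HCT116 (4) stayed at 3 to 5. S100A16 passed without background correction (adjusted p = 0.0297), with the random block (adjusted p = 0.0011) and without the first HCT116 mean (adjusted p = 0.0316). S100A13 did not pass on processed Cy3 signals (adjusted p = 0.0899) or with no filter on dim probes (adjusted p = 0.064), and S100A6 turned to 0.06 on the processed signals. Without a PANC-1 mean the calls over all genes were 893 to 925 toward HCT116 and 1128 to 1226 toward PANC-1, in place of 4599 and 4096. The cause of these changes was not tested. No paired analysis was possible because each miRNA had 1 array and the mock numbers do not pair the lines. Dim probes (S100P, S100A5 and S100A14 in PANC-1) limit the precision of their ratios.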
